A study of Homo sapiens with 5 samples.

Results

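PANC1 was set against HPAF1, the pair with the lowest correlation among 5 human pancreatic cell lines profiled on one-colour Affymetrix expression arrays. The compared features were all genes with a probe set that carries a single gene symbol. Of 19775 such genes, 14894 reached the level floor on at least 1 of the 5 arrays and were retained, whatever their difference between the lines. The comparison rests on 2 of the 5 samples, 1 array for PANC1 and 1 for HPAF1, with no replicate culture of either line, so every difference is described by its size and carries no test.

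PANC1 is an established line from a poorly differentiated human pancreatic carcinoma. HPAF1 is a human pancreatic cancer line per the labels, which say nothing more of its origin. Both were untreated, grown as their supplier recommends, and read from biotin-labelled total RNA. No genetic change was introduced into either line, and the labels name no passage, clone or number of cultures. The other lines of the series are SU86.86 and L3.6, also pancreatic cancer lines, and HPDE, known in the field as immortalised duct epithelium although its label reads as the others do. They serve here to show on which side of the pair the rest of the series lies.

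Levels are log2(intensity + 71.1), and a difference is the level in PANC1 minus that in HPAF1, so a positive value means more signal in PANC1. A gene is called higher or lower in PANC1 where the difference is at least 2-fold, a log2 difference of 1. The added constant pulls dim values together, so the fold change of a dim gene is understated. The level floor, the median of all probe sets, lies at 7.72 on this scale, an intensity of 140. Probe sets bind their targets with unequal strength, so a level is set only against the same gene in another line.

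Carcinomas of the pancreas arise among duct cells, an epithelium held together by cadherins, claudins and desmosomes and filled with simple keratins. Such tumour cells can keep this epithelial programme or lose it and take on mesenchymal features, with vimentin filaments and N-cadherin. Epithelial pancreatic tumours often also switch on genes of the stomach and intestine, a state called classical in the field. Interferon-stimulated genes form another programme that differs between tumour lines: interferon receptors activate STAT and IRF factors, which bind short repeated elements in the promoters of antiviral genes.

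Across the 14894 genes the levels in PANC1 and HPAF1 correlated at 0.776, the lowest value of the 10 pairs of lines. The next lowest was 0.803, for PANC1 and HPDE, and the pair stayed lowest in the main setting and in each of the 10 alternatives tried. The median absolute difference was 0.344, against 0.331 for PANC1 and HPDE and 0.247 for PANC1 and L3.6. By that second measure the label holds less firmly, since HPAF1 and HPDE were about as far apart at 0.3436, and the pair ranked 2 or 3 among the 10 pairs in 7 of the alternatives. Genes of 1 array are no replicates of each other, and these values therefore have no p-value.

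In PANC1, 1496 genes were at least 2-fold higher than in HPAF1, or 10.04% of those retained, and 1418 were at least 2-fold lower, or 9.52%. The other 11980 genes, 80.4%, lay within 2-fold. The numbers in the 2 directions were close at 2-fold but not at larger sizes: past 4-fold lay 376 genes higher in PANC1 and 534 lower, past 16-fold 25 higher and 92 lower, and past 32-fold 7 higher and 31 lower. The median difference was 0.01 and the quartiles were -0.30 and 0.40. Just inside the threshold were PEPD at 1.0004 and PRICKLE1 at -1.0007, and just outside it ACAD9 at 0.9993 and C6orf132 at -0.9997. Many calls had 1 line near background. Of the 1418 lower genes, 520 were below the floor in PANC1, and of the 1496 higher genes, 385 were below it in HPAF1.

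**Figure D1:**
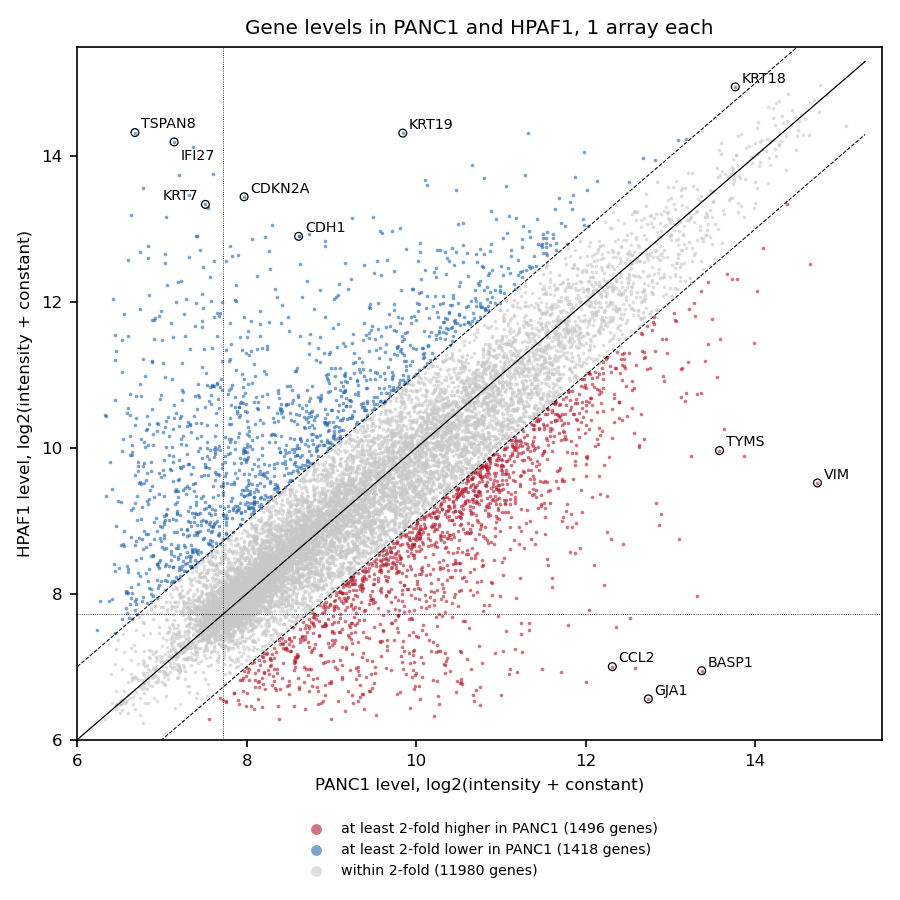
Level of each of the 14894 retained genes in PANC1 (horizontal axis) and HPAF1 (vertical axis), as log2(intensity + 71.1), 1 array each. Red and blue points are genes at least 2-fold higher or lower in PANC1, dashed lines mark 2-fold and dotted lines the level floor of 7.72. The blue cloud at the upper left reaches farther from the diagonal than the red one at the lower right, as the 92 genes at least 16-fold lower and the 25 at least 16-fold higher show.

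Array handling differed little between the pair. The 18 hybridisation control probe sets differed by -0.16 to 0.06, with a median of -0.03. The 3' to 5' intensity ratio, a sign of RNA integrity, was 1.04 in PANC1 and 1.02 in HPAF1 for GAPDH, and 1.11 in PANC1 and 1.08 in HPAF1 for ACTB. The array medians were 138 in PANC1 and 143 in HPAF1. Where a gene had several probe sets above the floor, the SD of the difference between them had a median of 0.22 over 6649 genes. Of 1488 genes past 2-fold with another such probe set, 1348 (90.6%) had every other probe set on the same side of 0, but only 698 had every other one past 2-fold. Probe sets share the RNA and the hybridisation, so their spread is not that of a second culture. The number of arrays limits the precision of every value.

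Ribosomal and housekeeping genes served as a scale for the rest. Of 17 ribosomal protein genes 0 were past 2-fold and their median was -0.09. RPL19 stood at 14.02 in PANC1 and 14.03 in HPAF1, and RPLP2, the widest of them, at 8.70 in PANC1 and 9.55 in HPAF1. Of 22 housekeeping genes 1 was higher and 0 were lower, with a median of 0.12. The higher one was VCP, a segregase of the ubiquitin system, at 12.43 in PANC1 and 11.13 in HPAF1, while ACTB differed by -0.08 and GAPDH by 0.08.

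The 20 genes farthest above HPAF1 in PANC1 were led by BASP1, a membrane-bound protein of growing neurites, at 13.37 in PANC1 and 6.95 in HPAF1, with 11.75 to 12.45 in the other lines. GJA1, the connexin of many gap junctions, stood at 12.74 in PANC1 and 6.56 in HPAF1, and the other lines again lay near PANC1 at 10.72 to 11.79. For both genes HPAF1 was the line at background. PPP1R14A, an inhibitor of myosin phosphatase, showed the reverse, at 12.59 in PANC1 and 6.98 in HPAF1 with at most 9.02 elsewhere. CCL2, which attracts monocytes, was likewise high in PANC1 at 12.32, against 7.002 in HPAF1 and 6.92 to 7.08 in the other lines. BCAT1, the cytosolic branched-chain aminotransferase, stood at 12.00 in PANC1 and 6.79 in HPAF1, and its 3 other probe sets differed by 3.30 to 4.76. IGFBP7, a secreted binder of growth factors, stood at 12.53 in PANC1 and 7.67 in HPAF1, and its other probe set differed by 5.92.

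Further down the same 20 were MSN, the membrane-to-actin linker moesin, at 11.79 in PANC1 and 7.57 in HPAF1, and PFN2, a profilin that binds actin monomers, at 13.10 in PANC1 and 8.75 in HPAF1. TUBB2B, a tubulin of the nervous system, stood at 11.09 in PANC1 and 6.90 in HPAF1, and GJC1, a second connexin, at 11.19 in PANC1 and 6.92 in HPAF1. These 4 encode cytoskeletal or junction proteins. BNIP3, a hypoxia-induced mitochondrial protein, stood at 11.002 in PANC1 and 6.62 in HPAF1, and MICB, a stress ligand seen by natural killer cells, at 11.48 in PANC1 and 6.97 in HPAF1. The remaining members were RFLNB, RGS20, LHFPL6, SUSD5, FBXO17, P3H2, ITPR2 and VIM, with differences of 4.81, 4.78, 4.28, 4.16, 4.14, 4.26, 5.34 and 5.22. Several of these large values rest on 1 probe set: another one gave 0.11 for BASP1, 0.65 for VIM, 0.56 for RGS20, 0.80 for LHFPL6, 0.95 for ITPR2 and -0.05 for P3H2. Of the 20, 11 had another probe set above the floor and 5 had all of them past 2-fold. In 9 of the 20 all the other lines lay nearer PANC1, and in 6 all lay nearer HPAF1.

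The 20 genes farthest below HPAF1 in PANC1 reached larger differences. TSPAN8, a tetraspanin of the gut surface, stood at 6.68 in PANC1 and 14.33 in HPAF1, and its difference of -7.65 was the widest of all genes. IFI27, an interferon-induced mitochondrial protein, stood at 7.14 in PANC1 and 14.20 in HPAF1. LYZ, the antibacterial enzyme lysozyme, stood at 6.78 in PANC1 and 13.57 in HPAF1, and its other probe set differed by -6.75. AKR1C3, a ketosteroid reductase, stood at 6.64 in PANC1 and 13.20 in HPAF1, and S100P, a calcium-binding protein found in many pancreatic carcinomas, at 7.20 in PANC1 and 13.74 in HPAF1. Each of these 5 was below the floor in PANC1, as were all 20.

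The surface and secreted products among them included CEACAM6, an adhesion molecule of the carcinoembryonic antigen family, at 7.37 in PANC1 and 14.13 in HPAF1, and CDH17, the liver-intestine cadherin, at 7.03 in PANC1 and 12.54 in HPAF1. The proteases were TMPRSS4, a membrane serine protease, at 7.04 in PANC1 and 13.17 in HPAF1, KLK10, a kallikrein, at 7.32 in PANC1 and 13.47 in HPAF1, and MMP7, the epithelial matrilysin, at 7.54 in PANC1 and 13.30 in HPAF1. SERPINB5, the serpin maspin, stood at 6.60 in PANC1 and 12.58 in HPAF1, and S100A14 at 6.74 in PANC1 and 12.69 in HPAF1. In both of these PANC1 was the line apart, since the other lines reached 10.997 to 12.44 for SERPINB5 and 10.97 to 13.31 for S100A14. The long noncoding RNA UCA1 stood at 7.60 in PANC1 and 13.76 in HPAF1, and the annexins ANXA3 and ANXA10 differed by -5.77 and -5.51. Of the 20 lowest genes, 5 had another probe set above the floor, and 4 had all of them past 2-fold. The exception was KRT7, for which another probe set gave -0.50. All the other lines lay nearer PANC1 for 8 of the 20 and nearer HPAF1 for 6.

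**Figure D2:**
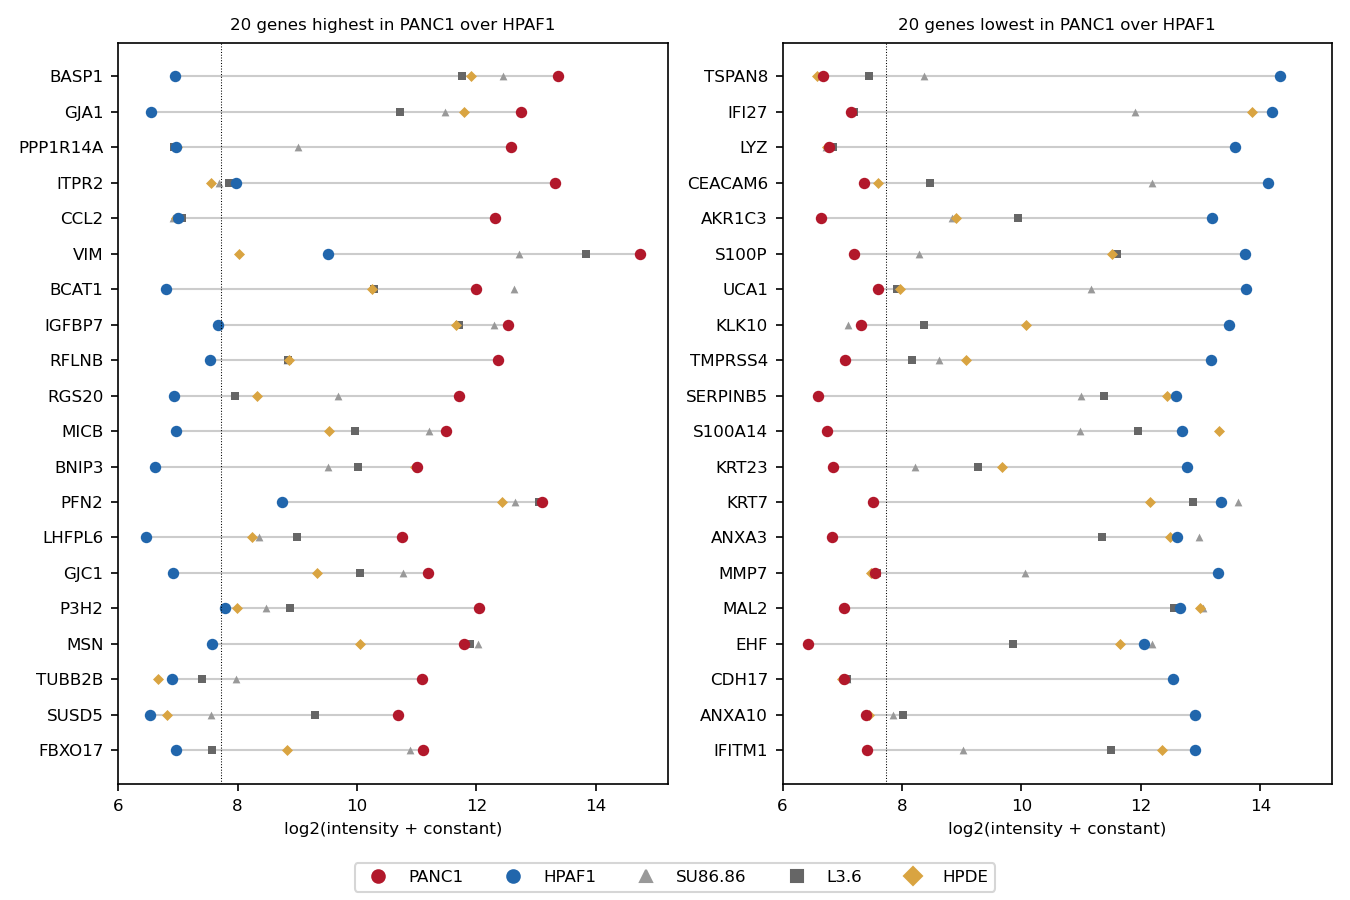
Level of the 20 genes with the highest (left) and the 20 with the lowest (right) difference PANC1 minus HPAF1, as log2(intensity + 71.1), in all 5 lines with 1 array each. Red circles are PANC1, blue circles HPAF1, triangles SU86.86, squares L3.6 and diamonds HPDE, and the dotted line is the level floor of 7.72. For BASP1 and GJA1 the other lines sit by PANC1, for CCL2 and ITPR2 by HPAF1, and all 20 genes on the right are below the floor in PANC1.

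The rest of the series did not lie on 1 side of the pair. Of the 1496 genes higher in PANC1, the other 3 lines were all nearer PANC1 for 325 (21.7%), all nearer HPAF1 for 276 (18.4%) and split for 895 (59.8%). Of the 1418 lower genes they were all nearer PANC1 for 473 (33.4%), all nearer HPAF1 for 241 (17.0%) and split for 704 (49.6%). HPAF1 thus stood alone more often among the lower genes: it was at least 2-fold above every other line for 401 of them, while PANC1 was at least 2-fold below every other line for 239. Among the higher genes the counts were near each other, with PANC1 at least 2-fold above all the others for 215 and HPAF1 at least 2-fold below all the others for 206. Line by line, HPDE lay nearer PANC1 for 40.3% of the higher genes and 54.4% of the lower genes. L3.6 lay nearer PANC1 for 56.5% of the higher and 67.3% of the lower genes, and SU86.86 for 63.3% of the higher and 56.0% of the lower genes.

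Epithelial genes were lower in PANC1 as a body. Of 93 measured members of 8 epithelial lists, 55 were at least 2-fold lower than in HPAF1 and 0 were higher, with a median difference of -1.58, against 9.52% lower and a median of 0.01 over all genes. Each array read the RNA of a whole culture, so fewer cells with a transcript and less of it per cell cannot be told apart. Among 13 adhesion and surface proteins 8 were lower, with a median of -2.60. CDH1, the cadherin that joins epithelial cells, stood at 8.61 in PANC1 and 12.90 in HPAF1, and EPCAM, a surface glycoprotein of simple epithelia, at 10.80 in PANC1 and 13.71 in HPAF1. CDH1 was above the floor in both lines, and EPCAM was well above it in both. The P-cadherin CDH3 stood at 7.46 in PANC1 and 10.16 in HPAF1, the ion transport regulator FXYD3 at 7.97 in PANC1 and 11.79 in HPAF1 and the receptor ERBB3 at 7.48 in PANC1 and 11.91 in HPAF1. The catenins that carry cadherins to actin differed less: JUP by -1.94, CTNNA1 by -0.77 and CTNNB1 by -0.36. Some probe sets have names that mark them as matching several transcripts, which may be forms of the same gene or of different genes. They are called cross-matching here, although many need not mix genes. With them left out, which leaves the narrower probe sets, 2 of the 8 members still measured were lower.

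Tight junction and desmosome genes each had lower members and none higher. Of 18 tight junction and polarity genes 10 were lower and 0 higher, with a median of -1.58. The claudins, which seal the space between cells, included CLDN4 at 7.29 in PANC1 and 12.04 in HPAF1 and CLDN7 at 8.22 in PANC1 and 12.89 in HPAF1, while CLDN1 stood at 11.49 in PANC1 and 12.18 in HPAF1 and was within 2-fold. The scaffold TJP1 and the strand protein OCLN were also within 2-fold, at -0.83 and -0.89. CRB3, a determinant of the apical domain, differed by -2.19, and the paracellular adaptor CGN by -1.87. Of 11 desmosome genes 7 were lower, with a median of -1.45. DSP, which anchors keratin filaments to desmosomes, stood at 8.50 in PANC1 and 11.61 in HPAF1, the plakophilin PKP2 at 7.02 in PANC1 and 9.83 in HPAF1 and the desmosomal cadherin DSG2 at 10.42 in PANC1 and 12.75 in HPAF1. PERP, a desmosomal membrane protein, went the other way within 2-fold, at 13.84 in PANC1 and 13.32 in HPAF1. Of the desmosome genes typical of stratified epithelium, DSG3 was lower at 7.81 in PANC1 and 9.27 in HPAF1. PKP1 and DSC3 were near the floor in both lines, PKP1 at 7.54 in PANC1 and 7.55 in HPAF1 and DSC3 at 7.86 in PANC1 and 7.86 in HPAF1.

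Regulators of the epithelial state were lower in part. Of 11 epithelial transcription and splicing factors 6 were lower and 0 higher, with a median of -1.37. EHF, an ETS factor of glandular epithelia, stood at 6.42 in PANC1 and 12.04 in HPAF1, and its 5 other probe sets differed by -3.31 to -2.04. ESRP1, which sets epithelial splice forms, stood at 6.88 in PANC1 and 11.20 in HPAF1, the Krüppel-like factor KLF5 at 7.58 in PANC1 and 12.02 in HPAF1 and the ETS factor ELF3 at 7.68 in PANC1 and 11.85 in HPAF1. For EHF, ESRP1 and KLF5 every other line was above the floor, at no less than 9.86, 10.77 and 11.73. GRHL2, a grainyhead factor, differed by -1.37, while GRHL3 at 0.58 and TFCP2L1 at -0.05 were within 2-fold.

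Apical traffic and keratins completed the pattern. Of 19 apical transport and microvillus genes 13 were lower, with a median of -1.58, among them RAB25, a GTPase of recycling endosomes, at 6.91 in PANC1 and 11.76 in HPAF1 and MAL2, a protein of apical transport, at 7.03 in PANC1 and 12.66 in HPAF1. RAB17 and the bundling protein VIL1 differed by -3.13 and -4.17, and EZR, the microvillus linker ezrin, by -0.63, within 2-fold. Of 8 membrane serine proteases and inhibitors 5 were lower, with a median of -2.54. ST14, the protease matriptase, stood at 7.67 in PANC1 and 11.81 in HPAF1, its activator PRSS8 at 7.01 in PANC1 and 10.22 in HPAF1, and their inhibitor SPINT1 at 8.06 in PANC1 and 10.89 in HPAF1, although the related inhibitor SPINT2 stood at 12.68 in PANC1 and 12.43 in HPAF1. Of 7 simple epithelial keratins 6 were lower, with a median of -4.48. KRT18 and its partner KRT8 stayed strong in PANC1, KRT18 at 13.77 in PANC1 and 14.95 in HPAF1 and KRT8 at 11.98 in PANC1 and 14.06 in HPAF1. KRT19 stood at 9.84 in PANC1 and 14.32 in HPAF1, with another probe set at -0.53, and KRT20, a keratin of gut epithelium, at 6.84 in PANC1 and 12.10 in HPAF1. None of 6 stratified keratins was past 2-fold, KRT5 standing at 7.30 in PANC1 and 7.26 in HPAF1. Without cross-matching probe sets 2 of the 4 simple keratins left were lower.

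Promoter sequences were read for these groups because the factors known to repress epithelial genes, of the SNAI and ZEB families, bind the element CACCTG. Promoters are from RefSeq for GRCh38.p14, 250 bases before to 50 after each gene's start, searched for CACCTG on both strands. The element was in 20.6% of all 27305 promoters and in 19.4% of the 11885 promoters of retained genes. It was in 8 of 14 apical transport genes, 6 of 14 tight junction genes, 3 of 7 desmosome genes, 3 of 7 epithelial factors and 1 of 6 adhesion genes with a promoter in the table. Among those that were lower in PANC1, it was in 7 of 11 apical transport genes and 3 of 4 desmosome genes, but in 2 of 8 tight junction genes, 1 of 4 epithelial factors and 0 of 3 adhesion genes. RAB25 and DSP are shown because each was lower in PANC1 and holds 2 copies, in capitals. The RAB25 promoter lies at chr1:156060910-156061209 on the plus strand and the DSP promoter at chr6:7541421-7541720 on the plus strand, where the copies read CAGGTG, the element on the other strand.
RAB25: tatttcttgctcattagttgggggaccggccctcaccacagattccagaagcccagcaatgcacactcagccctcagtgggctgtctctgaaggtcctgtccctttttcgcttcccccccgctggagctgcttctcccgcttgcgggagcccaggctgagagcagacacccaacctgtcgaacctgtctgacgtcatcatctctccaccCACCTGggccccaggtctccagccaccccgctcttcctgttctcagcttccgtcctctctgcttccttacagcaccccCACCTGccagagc
DSP: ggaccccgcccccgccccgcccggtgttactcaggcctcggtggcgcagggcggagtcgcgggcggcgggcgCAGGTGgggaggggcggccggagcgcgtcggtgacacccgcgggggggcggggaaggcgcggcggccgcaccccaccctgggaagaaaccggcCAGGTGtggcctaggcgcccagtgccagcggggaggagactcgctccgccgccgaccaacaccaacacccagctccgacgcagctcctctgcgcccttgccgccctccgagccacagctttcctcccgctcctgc
A match is a description of these letters and not of a bound site.

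Mesenchymal genes were higher in PANC1 in part. Of 63 measured members of 4 lists 25 were higher and 2 were lower, with a median of 0.45, against 10.04% higher over all genes. Among 20 genes of the mesenchymal cytoskeleton and surface 11 were higher and 0 lower, with a median of 1.20. VIM, the intermediate filament of mesenchymal cells, was the widest of them. It stood at 14.74 in PANC1 and 9.52 in HPAF1, while HPDE had 8.02, L3.6 13.84 and SU86.86 12.71. The median level of the list was 10.48 in PANC1 and 8.73 in HPAF1. PANC1 was not the highest line, since this median was 10.98 for SU86.86, with 8.54 for HPDE and 9.18 for L3.6. For 2 of the 11 higher genes all the other lines were nearer PANC1, and for 2 all were nearer HPAF1. CDH2, the N-cadherin of neural and mesenchymal cells, stood at 10.61 in PANC1 and 7.10 in HPAF1, and the actin regulator CNN3 at 10.36 in PANC1 and 7.07 in HPAF1. The tropomyosins TPM1 and TPM2 differed by 2.43 and 1.10, S100A4, a calcium-binding protein of motile cells, by 1.74 and the receptor tyrosine kinase AXL by 1.30. CD44, the hyaluronan receptor, stood at 13.17 in PANC1 and 10.65 in HPAF1, but its probe sets disagreed, another giving -0.69. Of the smooth muscle genes of the same list, the myosin light chain MYL9 was higher at 8.59 in PANC1 and 7.13 in HPAF1, while TAGLN, ACTA2 and CNN1 were within 2-fold, at -0.87, 0.31 and 0.22. CDH11 differed by -0.06. When cross-matching probe sets were dropped, 5 of 14 members were higher.

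The transcription factors that drive loss of the epithelial state did not move as a group. Of 8 measured, 2 were higher and 1 was lower, with a median of 0.24, against 10.04% higher and 9.52% lower over all genes. The lower count, 12.5% of the list, was near that share. ZEB1, a repressor of CDH1, stood at 9.22 in PANC1 and 7.54 in HPAF1, below the floor in HPAF1. SNAI2, a repressor of the same family as SNAI1, went the other way, at 6.82 in PANC1 and 10.26 in HPAF1, with 10.43 to 11.22 in the other lines. SNAI1 and TWIST1 were within 2-fold, at 0.13 and 0.07, and TWIST1 was below the floor in both. FOXC2 was higher on the probe set kept, at 9.71 in PANC1 and 7.60 in HPAF1, and differed by 0.18 on another.

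Matrix genes were mostly dim in both lines. Of 24 measured, 5 were higher and 1 was lower, with a median of 0.08. Over all genes 10.04% were higher and 9.52% lower. COL18A1, a basement membrane collagen, stood at 12.25 in PANC1 and 8.84 in HPAF1, the collagen crosslinkers LOXL2 and LOXL1 at 10.12 and 8.97 in PANC1, against 7.80 and 6.78 in HPAF1. LOXL2 differed by -0.21 on another probe set. The lower gene was FSTL1 at -1.05. FN1, fibronectin, stood at 7.47 in PANC1 and 8.23 in HPAF1, and COL1A1 and SPARC differed by 0.42 and 0.07. Of 12 caveolar and YAP target genes 8 were higher and 0 lower, with a median of 1.36. CAV1 and CAVIN1 build caveolae, and CAV1 stood at 13.63 in PANC1 and 10.26 in HPAF1, CAVIN1 at 12.87 in PANC1 and 8.94 in HPAF1. CCN1 and CCN2, secreted targets of the mechanosensitive factor YAP, differed by 3.35 and 1.25. Without cross-matching probe sets 3 of 17 matrix genes were higher. Of 10 caveolar and YAP target genes left by the same step 6 were higher and 1 was lower.

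Many gut-like genes were lower in PANC1. Of 97 measured members of 6 lists 46 were lower and 4 higher, the median being -0.72, against shares of 9.52% lower and 10.04% higher over all genes. The intestinal brush border and surface list had 13 of 18 lower and 1 higher, with a median of -2.29, and for 11 of the 13 all the other lines were nearer PANC1. LGALS4, an intestinal galectin, stood at 7.45 in PANC1 and 12.71 in HPAF1, with at most 7.48 in the other lines. TM4SF4 stood at 7.75 in PANC1 and 12.56 in HPAF1, with at most 7.87 elsewhere, and CLRN3 at 6.85 in PANC1 and 10.32 in HPAF1, with at most 7.05. DPP4, a brush border peptidase, stood at 7.32 in PANC1 and 9.77 in HPAF1. The aminopeptidase ANPEP was the exception, at 10.15 in PANC1 and 7.37 in HPAF1, with at most 7.23 in the other lines. FABP1 and CEACAM7 were within 2-fold and CEACAM5 differed by -0.41.

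Secretory products of the stomach had fewer members past 2-fold. Of 17 measured 6 were lower and 0 higher, with a median of -0.31, against 9.52% lower and 10.04% higher over all genes. In PANC1, 11 of the 17 were below the floor. Beside LYZ and ANXA10, the trefoil peptide TFF2 stood at 7.45 in PANC1 and 10.01 in HPAF1, the mucosal glycoprotein DMBT1 at 7.38 in PANC1 and 9.41 in HPAF1 and the trypsin inhibitor SPINK1 at 7.02 in PANC1 and 8.62 in HPAF1. AGR2, a disulfide isomerase that folds mucins, was strong in both lines, at 13.48 in PANC1 and 13.52 in HPAF1. TFF1 and the gastric protease CTSE were within 2-fold, at 0.07 and -0.11. With the narrower probe sets 3 of 13 members were lower. Among 11 mucins 4 were lower and 0 higher, with a median of -0.30: MUC20 at 7.27 in PANC1 and 11.53 in HPAF1, MUC1 at 8.87 in PANC1 and 11.52 in HPAF1, MUC13 at 10.51 in PANC1 and 11.84 in HPAF1 and MUC17 at 7.30 in PANC1 and 8.79 in HPAF1. The gel-forming mucins MUC5AC, MUC2, MUC5B and MUC6 were within 2-fold, MUC5AC at 8.19 in PANC1 and 8.48 in HPAF1. With cross-matching probe sets left out 2 of 9 mucins were lower.

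Enzymes that build mucin sugars had 8 of 20 lower and 1 higher, with a median of -0.15. Over all genes 9.52% were lower and 10.04% higher. GALNT3, which starts O-linked chains, stood at 6.88 in PANC1 and 11.75 in HPAF1, and in the other lines at 10.18 to 11.90. GCNT3, which branches them, stood at 7.57 in PANC1 and 12.34 in HPAF1, with at most 7.77 elsewhere. GALNT5 differed by -3.40, the fucosyltransferase FUT2 by -1.69 and B3GNT3 by -2.21. B3GNT7 was higher, at 9.49 in PANC1 and 7.93 in HPAF1. On the narrower probe sets 4 of 13 glycosylation genes were lower.

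Lineage factors of the FOXA family lay on both sides. Of 17 endoderm and duct factors 6 were lower and 2 higher, with a median of -0.21, against 9.52% lower and 10.04% higher over all genes. The higher count, 11.8% of the list, was near that share. FOXA1 stood at 7.02 in PANC1 and 9.34 in HPAF1 and FOXA3 at 7.03 in PANC1 and 8.99 in HPAF1, while FOXA2, another of these pioneer factors of foregut endoderm, was higher at 10.73 in PANC1 and 9.40 in HPAF1. HNF4G, a nuclear receptor of the gut, stood at 7.29 in PANC1 and 9.48 in HPAF1, GATA6, a factor of classical tumours, at 7.70 in PANC1 and 9.48 in HPAF1 and CDX2, the intestinal master factor, at 7.29 in PANC1 and 8.57 in HPAF1. HHEX, a homeobox factor of foregut endoderm, was higher at 8.67 in PANC1 and 6.79 in HPAF1, and SOX9, a factor of duct cells, was within 2-fold at 11.36 in PANC1 and 10.77 in HPAF1. PDX1 differed by -0.05. Duct transport had 9 of 14 lower and 0 higher, with a median of -1.38. AQP3, a water and glycerol channel, stood at 7.83 in PANC1 and 12.63 in HPAF1, the chloride channel ANO1 at 6.94 in PANC1 and 10.23 in HPAF1 and the carbonic anhydrase CA2 at 8.81 in PANC1 and 10.17 in HPAF1. SCNN1A, a sodium channel subunit, stood at 6.99 in PANC1 and 11.88 in HPAF1 on the probe set kept and differed by -0.21 and 0.08 at the ends of its others. CFTR, the chloride channel of duct cells, was below the floor in both, at 7.45 in PANC1 and 7.64 in HPAF1.

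The labels call both lines pancreatic cancer, and their levels were read for 9 measured markers of duct epithelium. In PANC1, 7 of the 9 were lower and 0 higher, with a median of -2.65, against 9.52% lower and 10.04% higher over all genes. PANC1 held KRT8, KRT18, KRT19, EPCAM, CDH1, SOX9 and MUC1 above the floor and KRT7 and CFTR below it, and in HPAF1 only CFTR was below it. Promoters of the gut lists were searched for TTTATNG, a form of the CDX element. It was in 4 of 9 secretory and 3 of 16 brush border genes, against 6.60% of retained genes and 10.1% of all promoters. Among the genes past 2-fold it was in 2 of 3 secretory and 2 of 12 brush border promoters.

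Interferon-stimulated genes were lower in PANC1 nearly throughout. Of 38 measured 35 were at least 2-fold lower and 0 higher, against 9.52% lower and 10.04% higher over all genes. The median difference was -2.46, and 19 of the 38 were below the floor in PANC1 against 0 in HPAF1. The median level of the list was 7.72 in PANC1 and 10.34 in HPAF1. In the other lines it was 8.84 for SU86.86, 8.50 for L3.6 and 11.51 for HPDE. The effectors BST2, which tethers budding virions, and MX1, a GTPase that blocks viral replication, differed by -5.17 and -4.87. The RNA-sensing enzyme OAS1 stood at 7.88 in PANC1 and 12.23 in HPAF1, SAMD9, a restriction factor of poxviruses, at 6.53 in PANC1 and 11.04 in HPAF1 and IFITM1, which blocks viral entry, at 7.42 in PANC1 and 12.90 in HPAF1. The translation inhibitors IFIT1, IFIT2 and IFIT3 differed by -2.86, -3.05 and -2.63, and RSAD2, which makes a chain-terminating nucleotide, by -2.61.

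Some members of the list act in sensing and signalling. IRF9, the DNA-binding subunit of the interferon-activated complex, stood at 8.26 in PANC1 and 11.72 in HPAF1, and IRF7, which amplifies interferon transcription, at 9.82 in PANC1 and 11.36 in HPAF1. The cytosolic RNA sensors IFIH1 and RIGI differed by -2.38 and -1.44, although other probe sets gave -0.41 for IFIH1 and -0.20 to 0.79 for RIGI. USP18, which removes the modifier ISG15 from proteins, differed by -1.35, and ISG15 itself stood at 9.60 in PANC1 and 12.95 in HPAF1. The 3 members within 2-fold were SAMD9L at -0.67, IFIT5 at -0.02 and MX2 at 0.16. In 4 of the 35 lower genes all the other lines lay nearer HPAF1, and in 0 did all lie nearer PANC1.

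Antigen presentation followed in class I and not in class II. Of 16 class I genes 9 were lower and 0 higher, with a median of -1.23, against 9.52% lower and 10.04% higher over all genes. HLA-B stood at 11.12 in PANC1 and 12.71 in HPAF1, and HLA-C at 11.33 in PANC1 and 12.98 in HPAF1. The immunoproteasome subunits PSMB8 and PSMB9 differed by -1.97 and -1.88, and the peptide trimmer ERAP2 by -3.02. B2M, the light chain, stood at 13.37 in PANC1 and 14.35 in HPAF1, just within 2-fold, and the peptide transporters TAP1 and TAP2 differed by -0.51 and -0.46. HLA genes are near-copies of each other, so their probe sets may share signal, and without cross-matching probe sets 3 of 11 class I genes were lower. Among 11 class II genes 1 was lower, or 9.09%, near the share over all genes, and 0 were higher, with a median of -0.12. The lower one was HLA-DMA at 6.81 in PANC1 and 8.82 in HPAF1.

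The promoters of these genes were searched on both strands for AANNGAAA, the core read by interferon regulatory factors. It was in 29 of 32 interferon-stimulated genes with a promoter in the table and in 27 of the 30 that were past 2-fold, against 16.5% of retained genes and 23.2% of all promoters. It was in 9 of 14 class I genes, but in only 3 of the 8 that were past 2-fold. Such shares describe the promoters of the lists and not the difference between the lines. The promoters of ISG15, IFIT1 and BST2 are shown because each gene was lower in PANC1 and each holds the core more than once, in capitals. They lie at chr1:1013247-1013546 on the plus strand for ISG15, chr10:89392373-89392672 on the plus strand for IFIT1 and chr19:17405581-17405880 on the minus strand for BST2. ISG15 and BST2 hold 2 overlapping copies each, and IFIT1 holds 4 that lie apart, some of them on the other strand.
ISG15: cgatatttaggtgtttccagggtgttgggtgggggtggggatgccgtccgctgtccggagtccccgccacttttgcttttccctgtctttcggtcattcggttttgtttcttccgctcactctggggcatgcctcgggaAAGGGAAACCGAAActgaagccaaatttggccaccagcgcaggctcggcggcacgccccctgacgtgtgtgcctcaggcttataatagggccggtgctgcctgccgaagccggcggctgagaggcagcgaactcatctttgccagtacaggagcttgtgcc
IFIT1: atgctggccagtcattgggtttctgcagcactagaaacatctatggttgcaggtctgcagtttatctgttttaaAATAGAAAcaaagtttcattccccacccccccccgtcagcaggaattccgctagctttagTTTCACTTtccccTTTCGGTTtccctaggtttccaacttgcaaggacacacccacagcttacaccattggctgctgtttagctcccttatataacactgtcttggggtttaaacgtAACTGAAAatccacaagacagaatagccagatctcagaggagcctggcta
BST2: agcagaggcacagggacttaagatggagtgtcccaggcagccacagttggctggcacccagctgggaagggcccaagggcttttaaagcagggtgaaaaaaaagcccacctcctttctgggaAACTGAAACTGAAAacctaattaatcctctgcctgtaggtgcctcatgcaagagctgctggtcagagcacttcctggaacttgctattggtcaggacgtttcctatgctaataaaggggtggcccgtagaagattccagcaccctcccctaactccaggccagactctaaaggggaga

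Secreted immune products were mixed. Of 24 chemokines and cytokines 8 were lower and 2 higher, with a median of -0.14, against 9.52% lower and 10.04% higher over all genes. The higher count, 8.33% of the list, was near that share. CXCL8, CXCL5, CXCL2 and CXCL3, which attract neutrophils, differed by -3.65, -4.76, -3.00 and -2.45, and CXCL5 stood at 6.45 in PANC1 and 11.21 in HPAF1. CCL20 differed by -3.52 and IL18 by -2.69. The higher genes were CCL2 and IL11, IL11 at 8.60 in PANC1 and 6.84 in HPAF1 with 0.12 on another probe set. IL6 was below the floor in both, at 7.21 in PANC1 and 7.22 in HPAF1. Leaving out cross-matching probe sets, 5 of 19 were lower. Of 14 complement and acute phase genes 5 were lower and 1 higher, with a median of -0.47. LCN2, an iron-binding lipocalin, stood at 7.22 in PANC1 and 12.28 in HPAF1 and the complement protease CFB at 6.63 in PANC1 and 10.74 in HPAF1. The membrane regulators CD55 and CD46 differed by -3.22 and -1.82, while CD59 differed by 0.51. The chaperone CLU was higher, at 12.55 in PANC1 and 10.54 in HPAF1. With the narrower probe sets 2 of 8 complement genes were lower.

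Markers of other cell types gave little. Of 29 measured markers of acinar, islet, fibroblast, endothelial and blood cells 0 were higher and 2 were lower, LYZ and the monocyte receptor CD14, with a median of 0.00. The shares over all genes were 10.04% higher and 9.52% lower. None of 5 acinar, 3 islet, 12 fibroblast or 4 endothelial markers was past 2-fold. Median levels of these lists lay between 7.75 and 8.35 in PANC1 and between 7.69 and 8.72 in HPAF1, near the floor of 7.72.

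Cell cycle genes were higher in PANC1. Of 116 measured members of 4 lists 61 were higher and 8 lower, with a median of 1.12, where all genes had 10.04% higher and 9.52% lower. Among 34 mitosis genes 28 were higher and 0 lower, with a median of 1.67. The median level was 11.11 in PANC1 and 9.40 in HPAF1, and in the other lines 10.87 for SU86.86, 11.19 for L3.6 and 8.70 for HPDE. KIF23, a kinesin of cytokinesis, stood at 10.51 in PANC1 and 8.04 in HPAF1, and BIRC5, a subunit of the chromosomal passenger complex, at 12.21 in PANC1 and 9.76 in HPAF1. NDC80 of the kinetochore differed by 2.29, the checkpoint kinase BUB1B by 2.27 and FOXM1, a transcription factor of the mitotic programme, by 2.16. TOP2A, which untangles chromosomes, stood at 12.14 in PANC1 and 10.05 in HPAF1, and MKI67 at 10.53 in PANC1 and 9.40 in HPAF1. PLK1 and UBE2C were within 2-fold, at 0.25 and 0.56, and the phosphatase CDC25B had the opposite sign, at -0.50. With the narrower probe sets 18 of 23 were higher. Growth rate and density at harvest are not given in the sources used here, and their part in these values was not tested.

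DNA replication genes had 26 of 36 higher and 0 lower, with a median of 1.31. The loaders of the replicative helicase, CDC6, ORC1 and CDT1, differed by 1.30, 1.76 and 1.12, and helicase subunits MCM2 and MCM3 by 1.97 and 2.02. MCM7 was within 2-fold, at 11.83 in PANC1 and 11.40 in HPAF1. MCM10, which helps start the helicase, stood at 10.27 in PANC1 and 7.73 in HPAF1, and GINS1, a part of it, at 11.55 in PANC1 and 9.53 in HPAF1. Among the genes of nucleotide supply in this list, RRM1 stood at 12.63 in PANC1 and 10.04 in HPAF1, RRM2 at 13.21 in PANC1 and 11.18 in HPAF1 and TK1 at 11.69 in PANC1 and 10.42 in HPAF1. TYMS, which makes thymidylate, had the widest gap, at 13.58 in PANC1 and 9.96 in HPAF1, with another probe set at 0.00. RFC5 and PCNA were within 2-fold, at 0.07 and 0.92.

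**Figure D3:**
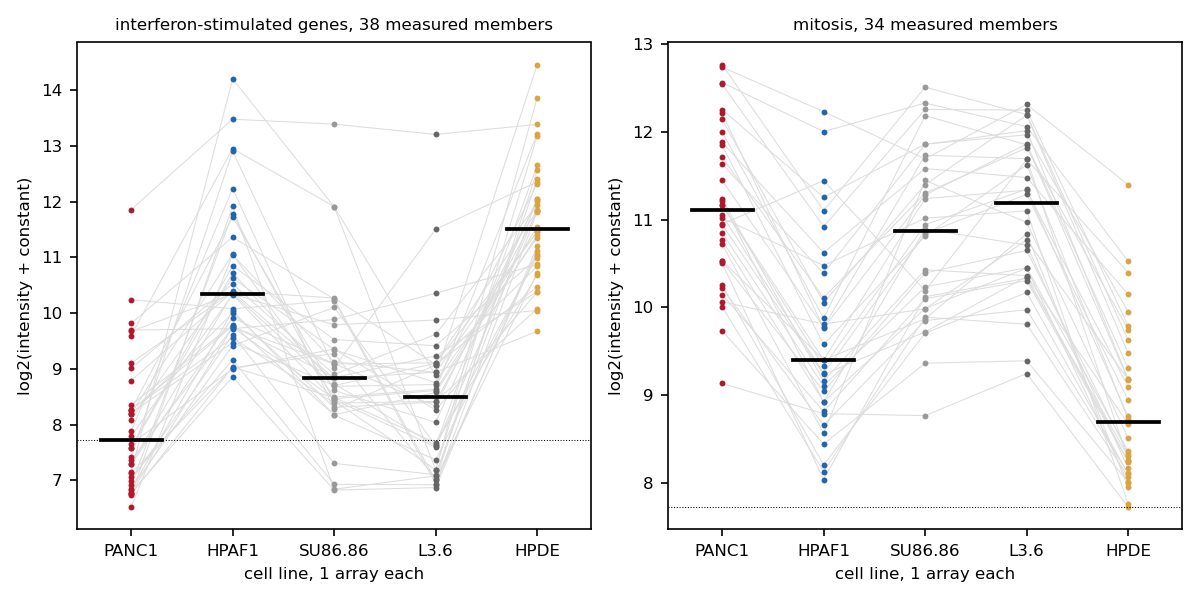
Level of each measured member of the interferon-stimulated list (38 genes, left) and the mitosis list (34 genes, right) as log2(intensity + 71.1) in the 5 lines, 1 array each. Grey lines join a gene across lines, black bars are medians and the dotted line is the level floor of 7.72. The interferon medians are 7.72 in PANC1 and 10.34 in HPAF1, and the mitosis medians 11.11 in PANC1 and 9.40 in HPAF1.

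Promoters of both lists were searched for elements of the cycle, TTTNGCGC for E2F factors and TTTGAA for the complex that times mitotic genes. TTTNGCGC was in 14 of 33 replication and 1 of 27 mitosis promoters, against 2.74% of retained genes. TTTGAA was in 17 of 27 mitosis and 1 of 33 replication promoters, against 10.4% of retained genes. Among the genes past 2-fold, TTTNGCGC was in 9 of 24 replication and 1 of 23 mitosis promoters. TTTGAA was in 16 of 23 mitosis and 1 of 24 replication promoters of such genes. These shares describe the lists and not the difference between the lines. A promoter of each kind is shown because the lists divided by element, with the copy in capitals: CDC6 at chr17:40287629-40287928 on the plus strand with TTTNGCGC, and CCNB2, a mitotic cyclin that stood at 11.71 in PANC1 and 10.11 in HPAF1, at chr15:59104896-59105195 on the plus strand with TTTGAA.
CDC6: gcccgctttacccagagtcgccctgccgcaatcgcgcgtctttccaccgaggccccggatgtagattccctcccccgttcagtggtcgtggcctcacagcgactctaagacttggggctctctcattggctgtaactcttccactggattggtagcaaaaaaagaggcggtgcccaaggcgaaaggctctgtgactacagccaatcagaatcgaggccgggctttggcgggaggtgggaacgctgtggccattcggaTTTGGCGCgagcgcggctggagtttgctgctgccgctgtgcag
CCNB2: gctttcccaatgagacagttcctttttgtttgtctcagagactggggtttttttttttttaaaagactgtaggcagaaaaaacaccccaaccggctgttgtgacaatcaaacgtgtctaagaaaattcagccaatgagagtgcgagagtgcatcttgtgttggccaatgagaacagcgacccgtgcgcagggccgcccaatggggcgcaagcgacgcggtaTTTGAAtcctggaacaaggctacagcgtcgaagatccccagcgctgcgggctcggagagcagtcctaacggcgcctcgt

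Regulators of the G1 phase lay on both sides. Of 22 measured 4 were higher and 4 lower, with a median of 0.18, against 10.04% higher and 9.52% lower over all genes. Of the cyclins that start S phase, CCNE1 stood at 10.69 in PANC1 and 8.34 in HPAF1 and CCNE2 at 10.44 in PANC1 and 7.95 in HPAF1, and their kinase CDK2 differed by 1.66. Of the inhibitors of the D-type cyclin kinases, CDKN2D was within 2-fold at 0.07, while CDKN2B stood at 6.53 in PANC1 and 11.48 in HPAF1 and CDKN2A at 7.97 in PANC1 and 13.45 in HPAF1, with other probe sets at -4.77 to -0.24. Their chromosome neighbour MTAP, an enzyme of methionine salvage, was within 2-fold at 9.83 in PANC1 and 10.24 in HPAF1. SU86.86 resembled PANC1 at both inhibitors, with 8.02 for CDKN2A and 6.59 for CDKN2B. CDKN1A differed by -1.55 and MYC by -1.44, while CCND1 and CDKN1B were within 2-fold, at -0.06 and -0.21.

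Of 25 targets of p53, 5 were lower and 3 higher, with a median of -0.14, against 9.52% lower and 10.04% higher over all genes. The higher count, 12% of the list, was near that share. GDF15 stood at 10.23 in PANC1 and 12.46 in HPAF1, with another probe set at -0.41, and the death receptor TNFRSF10B at 9.31 in PANC1 and 10.93 in HPAF1. DDB2, a sensor of ultraviolet lesions, was higher at 10.11 in PANC1 and 8.50 in HPAF1, and MDM2 differed by 0.79. Averaging all probe sets of a gene left 2 lower, and dropping cross-matching ones left 3.

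Growth factor pathways had members on both sides, 25 higher and 29 lower of 142 in 6 lists, with a median of -0.06, against 10.04% higher and 9.52% lower over all genes. In the TGF-beta and activin list 5 of 25 were higher and 3 lower. The receptor TGFBR2 stood at 9.81 in PANC1 and 13.02 in HPAF1 and the matrix target TGFBI at 10.13 in PANC1 and 13.61 in HPAF1, while TGFBR1 and the effector SMAD3 differed by 1.22 and 1.48. INHBB, an activin subunit, was higher at 11.55 in PANC1 and 8.40 in HPAF1. SMAD4 was within 2-fold, at 9.87 in PANC1 and 9.37 in HPAF1. With the narrower probe sets 3 of 22 were higher.

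The BMP list had 6 of 19 lower and 3 higher, against 9.52% lower and 10.04% higher over all genes. Ligands were split: BMP4 stood at 7.47 in PANC1 and 11.11 in HPAF1 and BMP2 at 6.39 in PANC1 and 9.81 in HPAF1, while BMP6 stood at 9.96 in PANC1 and 7.16 in HPAF1. The decoy receptor BAMBI stood at 7.70 in PANC1 and 12.00 in HPAF1, and at 7.07 to 7.81 in the other lines. The target ID2 differed by -2.43, ID1 by -1.13 and ID3 by -0.05. NOG, which sequesters BMP ligands, was higher at 9.24 in PANC1 and 7.17 in HPAF1. For 4 of the 6 lower genes all the other lines were nearer PANC1. The balance turned on the narrower probe sets, with 2 of 15 lower and 5 higher and a median of 0.23, against -0.05 before.

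WNT genes had 5 of 28 lower and 3 higher, with a median of -0.03, against 9.52% lower and 10.04% higher over all genes. The higher count, 10.7% of the list, was near that share. RNF43, which removes frizzled receptors from the surface, stood at 7.45 in PANC1 and 10.34 in HPAF1, and the receptors FZD5 and FZD2 differed in opposite directions, by -2.54 and 2.25. DKK3 was higher at 10.79 in PANC1 and 7.76 in HPAF1, and the transcriptional target AXIN2 differed by 0.03. The count lower was 3 with a larger added constant, and 2 when all probe sets of a gene were averaged or cross-matching ones dropped. Of 21 Notch genes 4 were higher and 2 lower, with a median of 0.05. The lower count, 9.52% of the list, was at the share over all genes. The ligand JAG1 stood at 10.51 in PANC1 and 12.22 in HPAF1 and NOTCH2 at 11.45 in PANC1 and 10.28 in HPAF1. DLL3, an inhibitory ligand, stood at 11.60 in PANC1 and 8.09 in HPAF1, but its other probe sets differed by 0.19 to 0.46. Of 14 Notch genes left on the narrower probe sets 1 was higher and 1 lower.

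Receptor tyrosine kinases and their ligands had 10 of 35 lower and 7 higher, with a median of -0.20. Over all genes 9.52% were lower and 10.04% higher. Ligands of the EGF receptor were on the lower side: TGFA stood at 7.02 in PANC1 and 11.17 in HPAF1, EREG at 8.34 in PANC1 and 12.18 in HPAF1, HBEGF at 8.62 in PANC1 and 10.45 in HPAF1 and BTC at 6.59 in PANC1 and 8.38 in HPAF1. EGFR itself differed by 0.08, and MET, the receptor of hepatocyte growth factor, by -1.50. On the higher side were FGF2 at 9.52 in PANC1 and 6.92 in HPAF1 and VEGFC at 10.25 in PANC1 and 7.55 in HPAF1, while VEGFA differed by -1.68. IGF1R and FGFR1 were higher on the probe set kept, by 2.36 and 1.79, and had the opposite sign on another, at -0.33 and -0.81. The count higher was 4 when all probe sets of a gene were averaged and 3 without cross-matching ones. Of 14 ephrin receptors and ephrins 3 were higher and 3 lower, with EFNB2 at 7.91 in PANC1 and 10.57 in HPAF1 and EPHB6 at 9.18 in PANC1 and 7.94 in HPAF1.

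Integrins and laminins had genes past 2-fold on both sides, set here beside 10.04% higher and 9.52% lower over all genes. Of 14 integrins 3 were lower and 1 higher: ITGB4, the hemidesmosome subunit, stood at 7.59 in PANC1 and 11.37 in HPAF1, its partner ITGA6 at 11.26 in PANC1 and 12.87 in HPAF1 and ITGB5 at 12.43 in PANC1 and 11.29 in HPAF1. ITGB4 differed by -0.17 on another probe set. ITGB1 and ITGAV were within 2-fold, at -0.51 and 0.10. Of 7 laminins 2 were lower and 1 higher, LAMB3, a chain of the epithelial basement membrane, standing at 7.53 in PANC1 and 10.87 in HPAF1. Of 11 integrins on the narrower probe sets 1 was lower and 1 higher, as were 1 and 1 of 3 laminins. Of 16 metalloproteinases and plasminogen system genes 5 were lower and 0 higher: MMP1, an interstitial collagenase, stood at 7.48 in PANC1 and 12.11 in HPAF1 and the urokinase receptor PLAUR at 8.79 in PANC1 and 11.91 in HPAF1, while PLAU differed by -0.07 and MMP14 by 0.05. Of 9 kallikreins 4 were lower and 0 higher, KLK6 at 8.06 in PANC1 and 12.86 in HPAF1 and KLK8 at 8.14 in PANC1 and 10.53 in HPAF1, and for all 4 the other lines were nearer PANC1.

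Calcium-binding families were divided, where 10.04% of all genes were higher and 9.52% lower. Of 13 S100 genes 4 were lower and 2 higher: S100A16 stood at 8.92 in PANC1 and 12.77 in HPAF1 and S100A4 at 11.03 in PANC1 and 9.29 in HPAF1, while S100A6 and S100A10 differed by -0.37 and -0.21. Of 11 annexins 7 were lower and 2 higher, with a median of -2.13. ANXA1 stood at 11.06 in PANC1 and 13.59 in HPAF1 and ANXA4 at 11.28 in PANC1 and 13.74 in HPAF1, while ANXA5 was higher at 12.31 in PANC1 and 10.14 in HPAF1 and ANXA2 differed by -0.20. On the narrower probe sets 4 of 8 annexins were lower. Of 10 connexins and pannexins 3 were higher and 2 lower. Of the epithelial connexins GJB2 stood at 7.62 in PANC1 and 9.99 in HPAF1 and GJB1 at 7.40 in PANC1 and 9.26 in HPAF1, opposite in sign to GJA1 and GJC1.

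**Figure D4:**
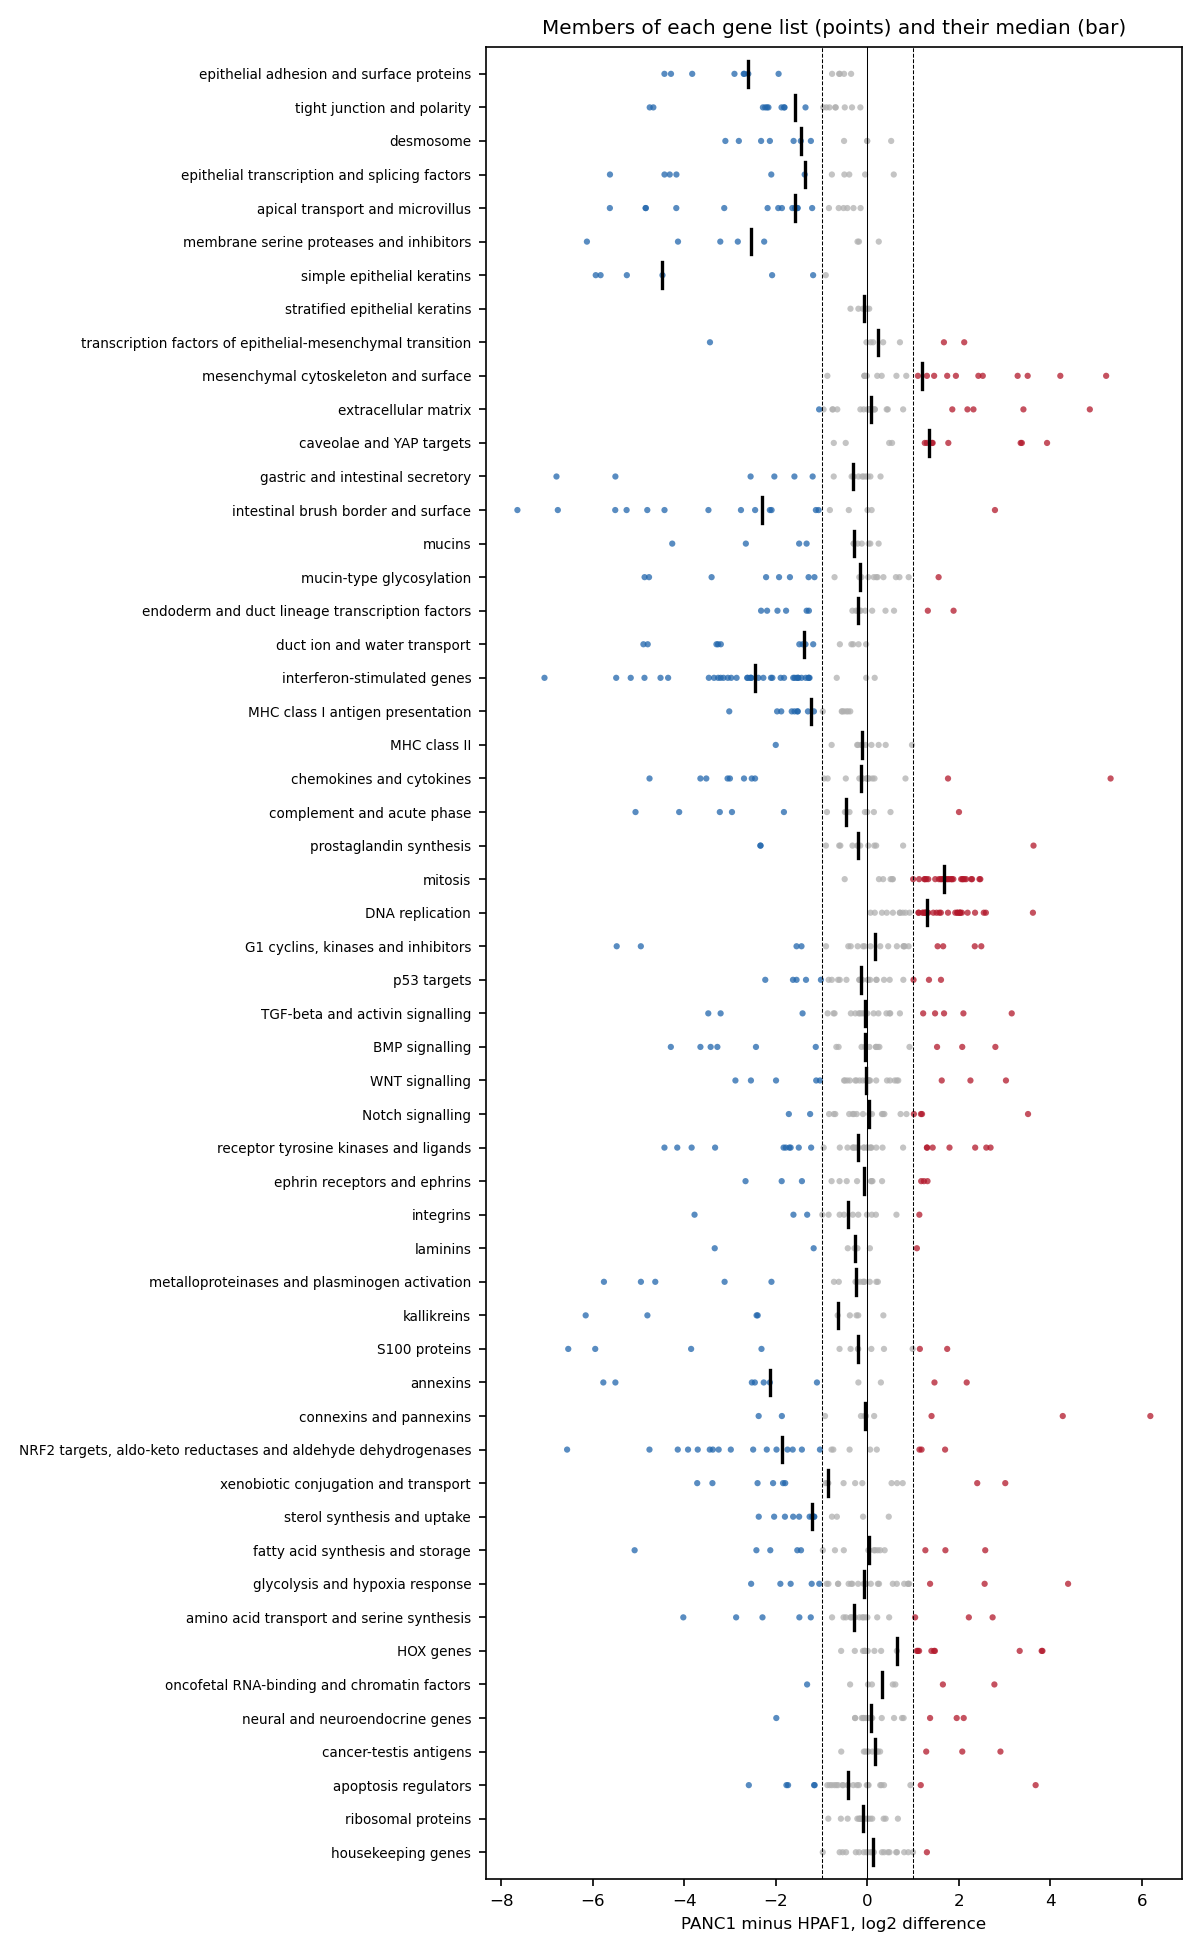
Difference PANC1 minus HPAF1 (log2, horizontal axis) of each measured member of the gene lists other than markers of other cell types. Points are genes, red at least 2-fold higher and blue at least 2-fold lower in PANC1, black bars are list medians and dashed lines mark 2-fold. The medians run from -4.48 for simple epithelial keratins to 1.67 for mitosis, and ribosomal proteins lie within 2-fold.

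Metabolic lists leaned to lower values in PANC1, 46 of 122 genes lower and 14 higher, the median being -0.52. Over all genes 9.52% were lower and 10.04% higher, so the higher count is near that share. Among 24 targets of the oxidative stress factor NRF2, aldo-keto reductases and aldehyde dehydrogenases 16 were lower and 3 higher, with a median of -1.86. AKR1C2 stood at 7.88 in PANC1 and 12.02 in HPAF1 and AKR1B10 at 8.03 in PANC1 and 11.28 in HPAF1, while the aldehyde dehydrogenases ALDH2, ALDH1A3 and ALDH1A1 differed by -4.76, -3.92 and -3.38. NQO1, a quinone reductase, stood at 10.94 in PANC1 and 13.14 in HPAF1 and SLC7A11, the cystine carrier, at 9.19 in PANC1 and 12.18 in HPAF1. The direction was not shared by all NRF2 targets, since HMOX1, at 10.07 in PANC1 and 8.37 in HPAF1, and GCLM, at 10.83 in PANC1 and 9.70 in HPAF1, were higher. The AKR1C genes are near-copies of each other, and AKR1C1 differed by -0.29 on another probe set. Without cross-matching probe sets 10 of 18 were lower.

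Other detoxification genes had 6 of 17 lower and 2 higher, against 9.52% lower and 10.04% higher over all genes. The higher count, 11.8% of the list, was near that share. CYP3A5 stood at 6.70 in PANC1 and 10.41 in HPAF1 and MGST1 at 9.16 in PANC1 and 12.54 in HPAF1. CYP1B1 stood at 10.86 in PANC1 and 7.85 in HPAF1 and GSTT1 at 9.48 in PANC1 and 7.08 in HPAF1. On the narrower probe sets 3 of 14 were lower. Sterol synthesis had 9 of 13 lower and 0 higher, with a median of -1.21, and for 6 of the 9 the other lines were all nearer PANC1. HMGCS1, early in the pathway, stood at 9.27 in PANC1 and 11.30 in HPAF1, IDI1 at 10.11 in PANC1 and 11.91 in HPAF1, INSIG1, the sterol sensor's partner, at 9.45 in PANC1 and 10.94 in HPAF1 and the sterol carrier STARD4 at 8.48 in PANC1 and 10.85 in HPAF1. MVK and PMVK were within 2-fold, at -0.09 and 0.47. SC5D was lower at -1.62 on the probe set kept, and reversed to 0.10 without cross-matching probe sets.

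Fatty acid genes had 5 of 18 lower and 3 higher, with a median of 0.03, against 9.52% lower and 10.04% higher over all genes. ACSL5, which activates fatty acids, stood at 7.19 in PANC1 and 12.28 in HPAF1, and the nuclear receptor PPARG at 8.36 in PANC1 and 10.79 in HPAF1, while FABP5 was higher at 13.31 in PANC1 and 10.74 in HPAF1 and FASN differed by 0.17. On the narrower probe sets 2 of 12 were lower and 2 higher. Glycolysis and hypoxia genes had 5 of 28 lower and 3 higher. The higher count, 10.7% of the list, was near the share over all genes. SLC2A1, the main glucose carrier, stood at 10.03 in PANC1 and 12.57 in HPAF1, and the peptide ADM at 12.68 in PANC1 and 10.12 in HPAF1, while LDHA and PGK1 were within 2-fold at -0.05 and -0.02. HK2 was lower at -1.22 on the probe set kept and had the opposite sign on its others, 0.76 to 0.88. Without cross-matching probe sets the balance turned here too, with 2 of 15 lower and 3 higher and a median of 0.23, against -0.06 before. Amino acid genes had 5 of 22 lower and 3 higher: PHGDH, which opens serine synthesis, stood at 11.83 in PANC1 and 9.09 in HPAF1 and CBS at 11.67 in PANC1 and 9.45 in HPAF1, while ASS1, which makes arginine's precursor, stood at 8.02 in PANC1 and 10.88 in HPAF1 and the glutamate carrier SLC1A1 at 6.69 in PANC1 and 10.71 in HPAF1. On the narrower probe sets 2 of 13 of these were lower and 2 higher.

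HOX genes, which record position along the body axis, had 9 of 19 higher and 0 lower, with a median of 0.65. The shares over all genes were 10.04% higher and 9.52% lower. Within the HOXB cluster HOXB7 stood at 11.33 in PANC1 and 7.50 in HPAF1 and HOXB2 at 11.03 in PANC1 and 7.22 in HPAF1, and HOXB5 and HOXB4 differed by 1.48 and 1.08. HOXB6, in the same cluster, had the opposite sign within 2-fold, at 10.85 in PANC1 and 11.42 in HPAF1. HOXB3 stood at 10.53 in PANC1 and 7.20 in HPAF1 on the probe set kept and differed by -0.05 on its other. In the HOXC cluster HOXC6 stood at 11.53 in PANC1 and 10.13 in HPAF1 and HOXC10 at 10.96 in PANC1 and 9.86 in HPAF1, while HOXC4 and HOXC8 differed by -0.05 and -0.06. Among 14 HOX genes on the narrower probe sets 6 were higher and the median was 0.12.

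Differences were not spread evenly along the genome. Genes were ordered along each chromosome by a RefSeq table for GRCh38.p14, used for order alone since no build is named for the arrays' probe sets here. Chromosome 15 had 19.8% of its 474 genes higher in PANC1 and 4.85% lower, with a median of 0.19, and chromosome 17 had 14.5% higher and 6.06% lower. Chromosome 8 had 7.35% higher and 17.0% lower, with a median of -0.12, and chromosome 20 had 6.82% higher and 13.9% lower. These compare with 10.04% higher and 9.52% lower over all genes.

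Runs of neighbouring genes were then described in windows of 15 retained genes, picked for their medians and so given without a test. The highest median, 2.80, was on chromosome 19 for SYCN to EID2, where 10 of 15 genes were higher and 0 lower. TIMM50, a subunit of the mitochondrial import machinery, stood at 13.87 in PANC1 and 9.89 in HPAF1 and PAF1, a subunit of an elongation complex of RNA polymerase II, at 12.45 in PANC1 and 8.69 in HPAF1. MED29 of the Mediator complex stood at 12.30 in PANC1 and 8.75 in HPAF1, the elongation factor SUPT5H at 12.18 in PANC1 and 9.37 in HPAF1 and EID2 at 12.89 in PANC1 and 9.10 in HPAF1. PANC1 was above all the other lines for these 5 genes, whose highest values elsewhere were 12.43, 11.22, 11.18, 11.74 and 11.86. Not every gene of the run followed: ZFP36, which destabilises cytokine messages, differed by -0.22, and GMFG by 0.05. Another window on the same chromosome, C19orf12 to LRP3, had 11 of 15 higher and a median of 1.46. It holds CCNE1, URI1 at 11.75 in PANC1 and 10.12 in HPAF1 and PDCD5 at 12.18 in PANC1 and 10.17 in HPAF1. The window RYR1 to PAK4, also on chromosome 19, had 9 higher and 1 lower, the lower gene being LGALS4.

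The lowest median, -2.08, was on chromosome 2 for LY75 to NOSTRIN, where 11 of 15 genes were lower and 0 higher. This run holds genes of several lists above, DPP4 of the brush border, GALNT3 of mucin glycosylation and the RNA sensor IFIH1. LY75, an endocytic receptor of dendritic cells, stood at 6.34 in PANC1 and 10.44 in HPAF1, the adaptor GRB14 at 6.73 in PANC1 and 9.51 in HPAF1 and the kinase STK39 at 9.45 in PANC1 and 11.97 in HPAF1. PSMD14, RBMS1 and FIGN of the same run were within 2-fold, at 0.40, -0.24 and -0.09. On chromosome 6 the run from H1-1 to BTN3A2, histone genes with HFE and BTN3A2 among them, had 8 of 15 lower and 0 higher, with a median of -1.42. H2AC6 stood at 7.87 in PANC1 and 11.07 in HPAF1 and H2BC5 at 9.58 in PANC1 and 11.53 in HPAF1, while H4C1 and H1-3 were within 2-fold at 0.07 and -0.04. Histone genes are near-copies of each other, so their probe sets may share signal. Gene copy number was not measured on these arrays, and its part in these runs was not tested.

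**Figure D5:**
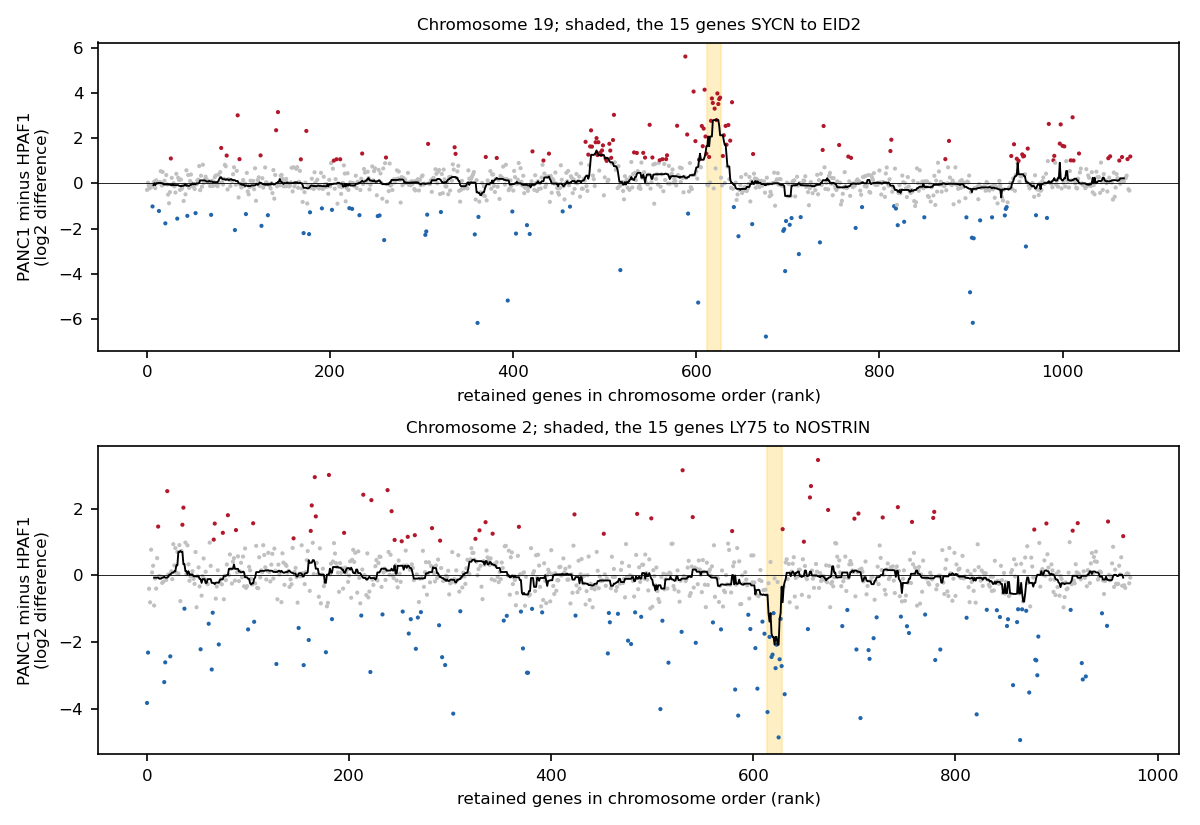
Difference PANC1 minus HPAF1 (log2, vertical axis) of the retained genes of chromosome 19 (top) and chromosome 2 (bottom), in chromosome order by rank. Points are genes, red at least 2-fold higher and blue at least 2-fold lower in PANC1, the black line is the running median of 15 genes, and the shaded window has a median of 2.80 on chromosome 19 and -2.08 on chromosome 2.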

How the data were processed

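One-colour Affymetrix arrays measured RNA of 5 human pancreatic cell lines, 1 array per line. Each array has 54675 probe sets in the series table the authors deposited, as intensities on a linear scale. How the authors summarised, scaled and background-corrected these intensities was not given in the sources used here. Log2 array medians differed by 0.06, under the tolerance of 0.25, so the values were used as deposited. Samples were grouped by their cell line label, and nothing says that a line was cultured more than once.

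Intensities became log2(value + 71.1), where the constant is the 25th percentile of positive values. After 62 control probe sets were set aside, 41091 probe sets had a single gene symbol. Another 1801 had several and were not named, and 11721 are unnamed in the annotation table. Of those with a single symbol, 41037 matched RefSeq symbols and 54 kept the older one. The probe set with the highest mean over the arrays stood for a gene. Genes were retained when their highest value was at least the median over all probe sets.

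The 59 gene lists and the compared pair were chosen with earlier results of these data known, so no list is independent evidence. Differences were counted at 2-fold, without a test. Named genes were the 20 highest and 20 lowest differences, up to 8 members per list with the largest absolute difference and the one with the smallest, and other members where a list is described by role. Genes of the chromosome windows were named, and the interferon, E2F and mitotic motifs chosen, after values were seen. Promoter sequences are RefSeq's for GRCh38.p14. Genes without a probe set of their own are not analysed here. Another 10 settings were tried: the constant (none, or the median), quantile normalization, median centring, 3 other choices of probe set and 3 other level filters. Scripts ran in Python 3.11.15 with pandas 2.3.3, numpy 2.4.6, scipy 1.17.1 and matplotlib 3.10.9. The step that gives each gene's difference was tested by setting known fold changes into the deposited intensities.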

Additional observations from a re-analysis of the deposited data

How the results depend on the processing

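The correlation of PANC1 with HPAF1 was the lowest of the 10 pairs in all 10 alternatives, at 0.851 with no level filter and 0.651 with the 75th percentile filter. The pair's rank by median absolute difference was 2 with no added constant, with the larger constant, after quantile normalization, after median centring and when all probe sets of a gene were averaged. It was 3 with no level filter and without cross-matching probe sets. These are the ones whose annotation suffix marks possible matches to more than 1 transcript, of the same gene or of different genes. Of 345 named genes past 2-fold, those still past it in the same direction numbered 342 with no constant, 331 with the larger constant, 344 after quantile normalization, 307 when probe sets were averaged and 342 with the probe set highest over PANC1 and HPAF1. All 345 kept their call after centring and with no level filter or a filter on PANC1 and HPAF1 alone, and all 337 left did with the strict filter.

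Dropping the cross-matching probe sets left 247 of these genes, and 226 kept their call. Here the sign reversed for P3H2 (-0.045), LTBP3 (0.086), SC5D (0.10) and HMGA2 (-0.27). HK2 reversed to 0.14 when probe sets were averaged, and HOXB3 to -0.049 with the probe set highest over the pair. Fewer members were measured without the cross-matching probe sets, which by itself lowers counts. The count lower in PANC1 became 2 for epithelial adhesion, 2 for simple keratins, 3 for gastric secretory genes, 4 for mucin glycosylation, 3 for MHC class I, 5 for cytokines, 2 for complement, 3 for p53 targets and 2 each for BMP and WNT signalling. It became 4 for annexins, 10 for the NRF2 list, 3 for xenobiotic genes, 2 for fatty acid, glycolysis and amino acid genes and 3 for apoptosis. The count higher became 5 for mesenchymal cytoskeleton, 3 for matrix, 18 for mitosis, 3 for TGF-beta and 3 for receptor tyrosine kinases. When probe sets were averaged, WNT had 2 lower, p53 targets 2 lower and receptor tyrosine kinases 4 higher, and WNT had 3 lower with the larger constant. The cause was not tested. A promoter motif planned for the gut lists was not run.

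No paired analysis was possible because each line has 1 array and the labels give no replicate numbers. The lack of a second culture limits every value: a difference between the lines cannot be told apart from one between 2 cultures of a line. Signal over background limits the genes with a line below the floor, whose fold change is understated and depends on the added constant.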

Other observations

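Several small lists held single genes with wide gaps. For scale, 10.04% of all genes were higher in PANC1 and 9.52% lower. Of 8 oncofetal RNA-binding and chromatin factors 2 were higher in PANC1 and 1 lower, with a median of 0.33. LIN28B, which blocks maturation of let-7 microRNAs, stood at 9.16 in PANC1 and 6.39 in HPAF1. IGF2BP3 was alike in both, at 10.81 in PANC1 and 10.79 in HPAF1, and HMGA2 was higher by 1.65 on the probe set kept but differed by -0.27 on another. Of 12 cancer-testis antigens 3 were higher and 0 lower, among them PRAME at 9.98 in PANC1 and 7.07 in HPAF1. Of 19 neural and neuroendocrine genes 3 were higher and 1 lower. MAP1B, a microtubule protein of neurons, stood at 10.70 in PANC1 and 8.75 in HPAF1, and CHGA, a granule protein of endocrine cells, at 8.35 in PANC1 and 8.31 in HPAF1.

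Of 27 apoptosis regulators 2 were higher and 5 lower, with a median of -0.43, against 10.04% higher and 9.52% lower over all genes. The higher count, 7.41% of the list, was near that share. BCL2A1, an antagonist of cell death, stood at 10.65 in PANC1 and 6.97 in HPAF1, with at most 9.20 in the other lines. The inflammatory caspase CASP4 stood at 8.11 in PANC1 and 10.70 in HPAF1, with another probe set at -0.68, and the initiator caspase CASP8 at 8.76 in PANC1 and 10.49 in HPAF1. BCL2 differed by 0.01 and MCL1 by -0.53. Of 14 genes of prostaglandin synthesis and response 1 was higher and 2 were lower, or 7.14% and 14.3%, near the shares over all genes. The receptor PTGER4 stood at 11.23 in PANC1 and 7.60 in HPAF1, while the synthase PTGES stood at 7.79 in PANC1 and 10.13 in HPAF1 and the degrading enzyme HPGD at 8.51 in PANC1 and 10.85 in HPAF1.

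Among 4153 probe sets above the floor that the annotation used does not list, 120 (2.89%) were at least 2-fold higher in PANC1 and 205 (4.94%) lower. These shares count every such probe set, while those of the named genes count only the probe set with the highest mean for each gene. They are therefore not directly comparable.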
